A study of Mus musculus musculus x M. m. domesticus and Mus musculus domesticus and Mus musculus with 12 samples.

Results

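Expression of the germ cell isoforms of energy metabolism was followed across the 4 genotypes of a reciprocal mouse cross, for *Pgk2* (ENSMUSG00000031233_at), *Ldhc* (ENSMUSG00000030851_at), *Gapdhs* (ENSMUSG00000061099_at) and *Pdha2* (ENSMUSG00000047674_at). The set was chosen by name and identifier, not by the values of its genes, though earlier results of these data were known. It named 5 genes. Values were analysed for 4 of them, out of 7000 genes in the whole series. The somatic lactate dehydrogenase *Ldha*, the fifth gene, was named for comparison, and its identifier was not among the genes analysed, so no ratio of a germ cell isoform to *Ldha* is given.

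Glycolysis splits glucose into pyruvate, which lactate dehydrogenase turns into lactate or the pyruvate dehydrogenase complex turns into acetyl-CoA for the mitochondria. Male germ cells replace several of the housekeeping enzymes of this route with copies of their own. *Pgk2* and *Pdha2* are intronless retrocopies of the X-linked genes *Pgk1* and *Pdha1*, and they are classic examples of autosomal genes that serve germ cells while the X chromosome is silenced in meiosis. *Ldhc* encodes the lactate dehydrogenase of spermatocytes, spermatids and sperm, and *Gapdhs* encodes the glyceraldehyde-3-phosphate dehydrogenase that is anchored to the fibrous sheath of the sperm tail. *Pdha2* encodes the E1 alpha subunit of pyruvate dehydrogenase and so acts downstream of glycolysis proper.

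The *DxD* males came from LEWES/EiJ mothers and WSB/EiJ fathers and are fertile F1 males within *M. domesticus*. The *MxM* males came from PWK/PhJ mothers and CZECHII/EiJ fathers and are fertile F1 males within *M. musculus*. The hybrid *DxM* (LEWES/EiJ mother, PWK/PhJ father) is fertile, and the reciprocal hybrid *MxD* (PWK/PhJ mother, LEWES/EiJ father) is sterile. All strains are wild-derived inbred lines, and WSB/EiJ and CZECHII/EiJ do not enter the hybrids, so the within-species males are not the hybrids' parents. RNA came from whole testis of 3 males per genotype, each 60 days old and each measured on 1 Affymetrix Mouse Genome 430 2.0 array, a 1-colour array that gives no read depth. The autosomes of both hybrids carry 1 copy from each species, while their X and Y chromosomes and mitochondria differ.

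Values are log2 expression per gene after quantile normalization, which gives every array the same set of values, so the sorted values of the 12 arrays were identical with a median of 8.14, a lowest value of 3.08 and a highest of 13.26. A value is therefore the rank of a gene on its array read off 1 common scale. Mean within-genotype variance over all genes was 0.0147 in *DxD*, 0.0203 in *DxM*, 0.0278 in *MxD* and 0.0879 in *MxM*. Genotypes were compared with limma, which fits all 12 males together, and a gene was called where its p, adjusted over all 7000 genes by the Benjamini-Hochberg procedure, was under 0.05. The 1997 entries used here, a part of the study's list of expressed genes, gave a cell type for 1102 autosomal genes. Among these, the class of postmeiotic genes stood lower in *MxD* than in the fertile genotypes. The mean deviation of its 269 genes from their medians over the 12 males ranged from -0.24 to -0.13 in the *MxD* males and from 0.015 to 0.083 in the 9 fertile males.

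In the fit without a block on the male's number, none of the 4 isoforms differed between the sterile and the fertile hybrid past the adjusted threshold. None did so between any other pair of genotypes. The same fit called 6.50% of all genes between the hybrids and 12.1% to 31.9% in the other pairs. *Pgk2*, *Ldhc* and *Pdha2* had nearly the same mean in *MxD* and *DxM*. *Gapdhs* was lower in *MxD* by a difference smaller than its spread between males. *Pdha2* was lower in *DxD* than in the other 3 genotypes by about 0.20, at unadjusted p values under 0.05 in limma that did not pass adjustment. The methods' gene-by-gene test gave these 3 differences unadjusted p values over 0.05.

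*Pgk2*, the phosphoglycerate kinase of male germ cells, read 11.96, 12.17 and 12.23 in the *DxD* males numbered 1, 2 and 3. In the same order it read 11.94, 12.08 and 12.11 in *MxM*, and 11.98, 12.21 and 12.17 in *DxM*. In *MxD* it read 11.999, 12.12 and 12.23. The ranges of all 4 genotypes overlapped, and in each genotype the male numbered 1 was the lowest. The means were 12.12 ± 0.14 in *DxD*, 12.12 ± 0.12 in *DxM*, 12.12 ± 0.11 in *MxD* and 12.04 ± 0.093 in *MxM* (SD, n = 3), and no neighbours in this order differed beyond their spread. The means spanned 0.078, whereas single males spanned 0.29.

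*Ldhc*, the lactate dehydrogenase of germ cells, sat at the top of the scale in every male. It read 13.18, 13.26 and 13.26 in *DxD*, and 13.18, 13.18 and 13.12 in *MxM*. It read 13.18, 13.21 and 13.21 both in *DxM* and in *MxD*, so that same-numbered males of the reciprocal hybrids had equal values. The ranges overlapped in all 4 genotypes, and all groups shared the value 13.18. The means were 13.24 ± 0.045 in *DxD*, 13.20 ± 0.017 in *DxM*, 13.20 ± 0.017 in *MxD* and 13.16 ± 0.034 in *MxM* (SD, n = 3), with no neighbours further apart than their spread. On its array *Ldhc* held a rank between 1 and 4, and it was the highest of all genes in 2 of the *DxD* males. Its residual SD of 0.0308 was among the lowest, with 0.329% of the genes at or below it, and the median gene had 0.129. The distance from rank 4 to rank 1 is 0.14 log2 units, and no array allows a value above 13.26. This ceiling bounds rises on the normalized scale, where rank 6 stands at 13.01. An equal value means an equal rank, and signals before normalization were not examined. Whether the top of the scale made its values steadier was not tested.

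*Gapdhs*, the sperm glyceraldehyde-3-phosphate dehydrogenase, varied most among males. It read 12.82, 12.64 and 12.60 in *DxD*, and 12.84, 12.42 and 12.66 in *MxM*. It read 12.73, 12.39 and 12.73 in *DxM*, and 12.71, 12.25 and 12.48 in *MxD*. The *MxD* male numbered 2 was the lowest of all 12, but the *MxD* male numbered 1 lay within the range of every fertile genotype, so the groups overlapped. The order of means was *DxD* (12.69 ± 0.12), *MxM* (12.64 ± 0.21), *DxM* (12.62 ± 0.20) and *MxD* (12.48 ± 0.23; SD, n = 3), and no neighbours differed beyond their spread. The residual SD was 0.195, higher than that of 80.1% of the genes. Its ranks ran from 12 to 54, and on this stretch of the scale the distance from rank 50 to rank 20 is worth 0.35 log2 units.

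*Pdha2*, the pyruvate dehydrogenase subunit, lies on chromosome 3 (NCBI build 37) and was placed in the meiotic class by the study's list of expressed genes. For the other 3 genes the entry was not used here, and no position or class is stated. It read 10.91, 11.09 and 11.13 in *DxD*, and 11.12, 11.33 and 11.26 in *MxM*. It read 11.12, 11.31 and 11.30 in *DxM*, and 11.21, 11.22 and 11.28 in *MxD*. The *DxD* and *MxD* ranges did not overlap, while the highest *DxD* male lay just above the lowest males of *MxM* and *DxM*. The share of all genes with separate *DxD* and *MxD* ranges was not counted. In that contrast 42.0% of all genes had an unadjusted limma p under 0.05. The means were 11.24 ± 0.11 in *DxM*, 11.24 ± 0.11 in *MxM*, 11.24 ± 0.036 in *MxD* and 11.04 ± 0.12 in *DxD* (SD, n = 3). The first 3 differed by less than their spread.

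**Figure D1:**
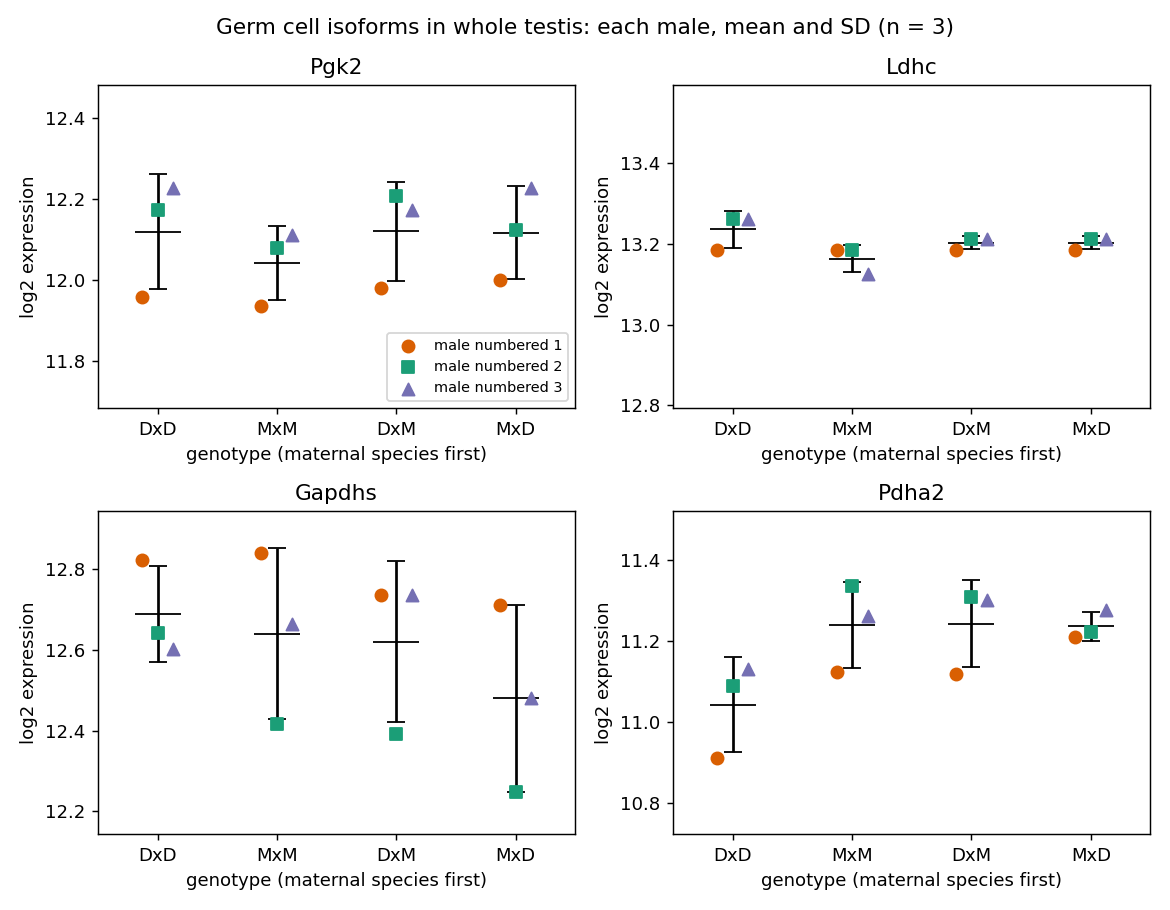
Log2 expression (vertical axes, different positions but the same span of 0.8 log2 units) of the 4 genes in each male, by genotype (horizontal axes). Each symbol is 1 male, with its number given by symbol and colour, the horizontal line is the mean and the bar the SD (n = 3). The males numbered 1 were lowest for *Pgk2* and *Pdha2* and highest or tied highest for *Gapdhs* in every genotype, and *Ldhc* spanned 0.14 over all 12 males.

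**Figure D2:**
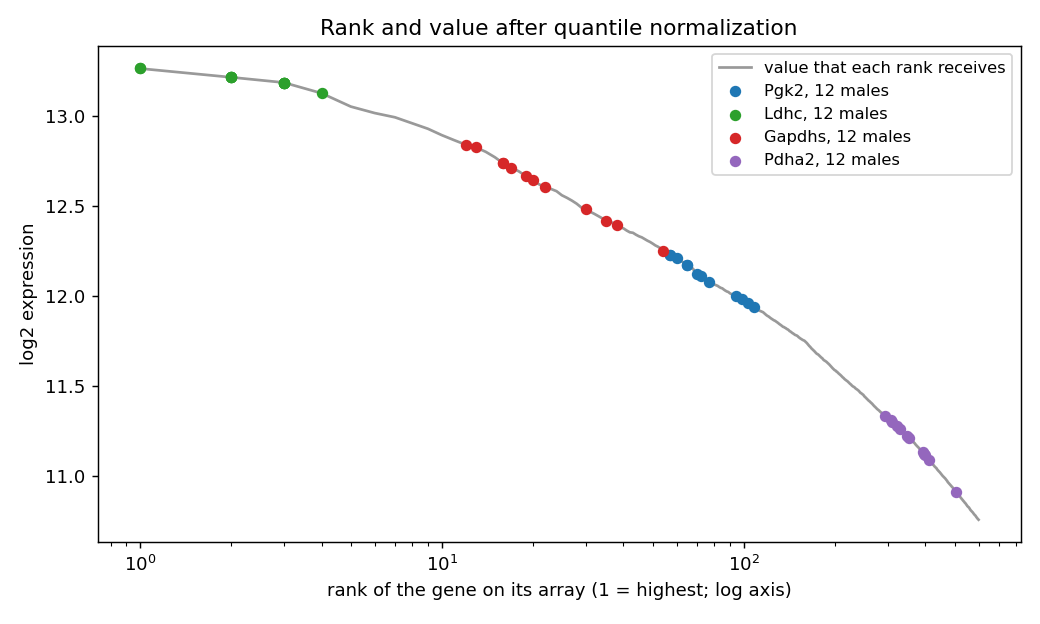
Log2 expression (vertical axis) against the rank of a gene on its array (horizontal axis, log scale, rank 1 highest). The grey line is the value that quantile normalization gives to each rank and each point is 1 gene in 1 male; *Ldhc* held ranks 1 to 4, *Gapdhs* 12 to 54, *Pgk2* 57 to 108 and *Pdha2* 294 to 506. Ranks place a gene on the common scale and do not compare transcript numbers between genes, since probes differ between genes.

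The comparison of *MxD* with *DxM* addresses which expression differences accompany sterility, because both hybrids have the same autosomal genotype. Of the 4 isoforms 0 were called, against 6.50% of all genes. *Ldhc* differed by 0 (95% interval -0.12 to 0.12; limma adjusted p = 1) and *Pgk2* by -0.0033 (95% interval -0.22 to 0.21; adjusted p = 0.992). *Pdha2* differed by -0.0069 (95% interval -0.19 to 0.18; adjusted p = 0.982). *Gapdhs* differed by -0.14 ± 0.14 (SE; 95% interval -0.46 to 0.18; adjusted p = 0.647). In whole testis, fewer cells of a type and less RNA per cell cannot be told apart. The interval of *Gapdhs* holds a fall of the size seen in the median postmeiotic gene (-0.20), with the male's number as a block as well (-0.31 to 0.031). That of *Pgk2* holds it without the block and does not with it (-0.11 to 0.11), and that of *Pdha2* ends just short of it. That of *Ldhc* does not hold it. Its values lie at the top of the scale, and how this affects the size of a fall was not tested.

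Relative to *DxD*, 0 of the 4 isoforms were called in *MxD*, against 31.0% of all genes. *Pdha2* was 0.19 ± 0.085 higher in *MxD* (SE; 95% interval 0.0066 to 0.38; limma adjusted p = 0.107). Its unadjusted p was under 0.05, as were those of 42.0% of all genes in this contrast. *Gapdhs* differed by -0.21 ± 0.14 (SE; 95% interval -0.52 to 0.11; adjusted p = 0.298). *Pgk2* differed by -0.0024 (adjusted p = 0.988) and *Ldhc* by -0.032 (adjusted p = 0.699). With the male's number as a block, both of the first genes were called: *Pdha2* at an adjusted p of 0.0185 and *Gapdhs* at 0.0488 (95% interval -0.38 to -0.037), in a fit that called 46.0% of all genes.

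Relative to *MxM*, 0 of the 4 were called in *MxD*, against 30.3% of all genes. *Gapdhs* differed by -0.16 (95% interval -0.48 to 0.16; limma adjusted p = 0.431) and *Pgk2* by 0.075 (95% interval -0.14 to 0.29; adjusted p = 0.595). *Ldhc* differed by 0.039 (adjusted p = 0.632) and *Pdha2* by -0.0038 (adjusted p = 0.978). The 3 contrasts of *MxD* share the *MxD* males and are not independent.

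Same-numbered males were set side by side because their deviations from the genotype means were correlated between *MxD* and each fertile genotype. This pairing comes from these values alone, not from the labels, and the calls with the block rest on it. *Gapdhs* was lower in *MxD* in all 9 such pairs. The differences were -0.023, -0.14 and -0.25 from *DxM*, -0.11, -0.39 and -0.12 from *DxD*, and -0.13, -0.17 and -0.18 from *MxM*. The 9 pairs use only 3 *MxD* males. With the block, *Gapdhs* was called against *DxD* but neither against *DxM* (limma adjusted p = 0.237, in a fit that called 17.2% of all genes) nor against *MxM* (adjusted p = 0.115, where 43.9% were called). *Pdha2* was higher in *MxD* than in *DxD* in all 3 pairs, by 0.30, 0.13 and 0.15. *Pgk2* was higher in *MxD* than in *MxM* in all 3 pairs, by 0.063, 0.044 and 0.12, and had mixed signs against *DxM* and *DxD*. *Ldhc* had differences of 0 in all 3 pairs of the hybrids. How many of all genes kept the same sign over pairs of same-numbered males was not counted. Agreement in sign therefore does not set these isoforms apart from other genes.

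Among the fertile genotypes 0 of the 4 isoforms were called, against 12.1% of all genes between *DxM* and *DxD*, 16.9% between *DxM* and *MxM* and 31.9% between *MxM* and *DxD*. *Pdha2* was 0.20 higher in *DxM* than in *DxD* (95% interval 0.013 to 0.39; limma adjusted p = 0.164). It was 0.20 higher in *MxM* than in *DxD* (95% interval 0.010 to 0.38; limma adjusted p = 0.102). Both had an unadjusted p under 0.05, as did 25.5% and 41.8% of all genes in these contrasts, and all 3 differences of *Pdha2* from *DxD* rest on the same 3 *DxD* males. In same-numbered males *DxM* exceeded *DxD* by 0.21, 0.22 and 0.17, and with the block this difference was called (adjusted p = 0.0298) in a fit that called 22.6% of all genes. Without the *MxM* male numbered 1, *Pdha2* was also called between *MxM* and *DxD* (0.26; adjusted p = 0.0465), in a fit that called 36.5% of all genes. Its difference between *DxM* and *MxM* was 0.0031 (adjusted p = 0.987). *Pgk2*, *Ldhc* and *Gapdhs* had adjusted p values between 0.363 and 0.998 in the 3 contrasts of fertile genotypes.

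The difference between each hybrid and the mean of the within-species genotypes asks whether a hybrid lies outside what both species would give on average. Of the 4 isoforms 0 were called in *DxM*, against 4.64% of all genes, and 0 in *MxD*, against 28.2%. *Gapdhs* differed from this mean by -0.044 in *DxM* (limma adjusted p = 0.897), and by -0.18 in *MxD* (95% interval -0.46 to 0.089; adjusted p = 0.3). With the block the latter was called at an adjusted p of 0.0483, in a fit that called 42.5% of all genes. That mean includes *MxM* and *DxD*, whose same-numbered males were not all correlated. *Pdha2* differed by 0.10 in *DxM* (adjusted p = 0.53) and by 0.095 in *MxD* (adjusted p = 0.371). Whether the difference made by the father's species depended on the mother's species was tested as an interaction. In it 0 of the 4 isoforms and 21.2% of all genes were called. Fathers of the same species were of different strains in the hybrids and the within-species males, so species and strain cannot be told apart here. The interaction was 0.23 ± 0.20 for *Gapdhs* (SE; adjusted p = 0.466) and -0.20 ± 0.12 for *Pdha2* (SE; adjusted p = 0.277).

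**Figure D3:**
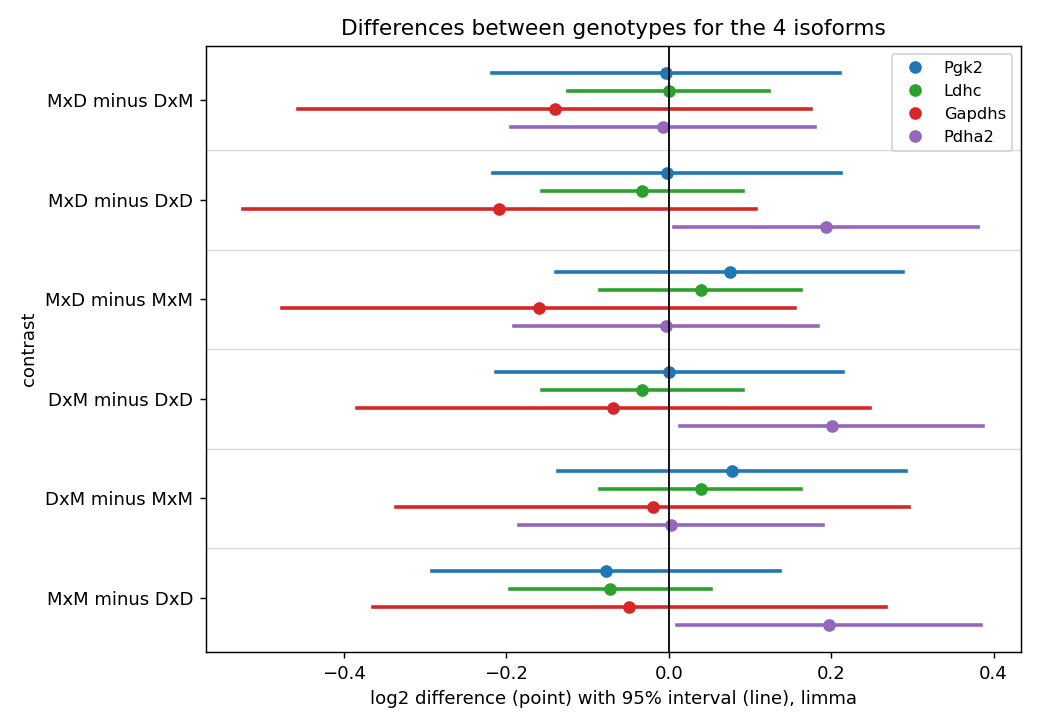
Differences in log2 expression between genotypes (horizontal axis) for the 6 pairwise contrasts (vertical axis), as limma's estimate (point) and 95% interval (line), without the block. The intervals of *Pgk2*, *Ldhc* and *Gapdhs* cross 0 in all 6 contrasts; those of *Pdha2* lie just above 0 in the 3 contrasts with *DxD* and cross 0 in the other 3.

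All 4 isoforms ranked high on every array, so they were also set beside the 700 genes with the highest mean. These had a median residual SD of 0.0893, below the values of *Pgk2* (0.119), *Gapdhs* (0.195) and *Pdha2* (0.0976) and above that of *Ldhc*. Of the 700, limma called 5.57% in the contrast of the hybrids, 20.9% against *DxD* and 21.7% against *MxM*. Their median absolute difference between the hybrids was 0.0817, against 0.12 over all genes. The absolute difference of *Gapdhs* exceeded both medians, and those of the other 3 isoforms were below both.

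The isoforms were then set beside genes of known cell type. Between *MxD* and *DxM* the median log2 difference was -0.20 over 269 genes most induced in postmeiotic cells, -0.044 over 324 meiotic genes, 0.16 over 367 mitotic genes and 0.11 over 142 somatic genes, beside -0.00042 over all genes. The differences of *Pgk2* and *Ldhc* were each above those of 88.8% of the postmeiotic genes, and that of *Pdha2* above those of 88.5%. Against the meiotic genes the same 3 differences were above 66%, 67.3% and 64.7%. *Gapdhs* was above 65.1% of the postmeiotic genes and above 22.5% of the meiotic genes, so it lay between the medians of both classes. That placing depended on single males. Without the *MxD* male numbered 2, *Gapdhs* differed by -0.025 and lay above the meiotic median (-0.051 in the same fit). Without the *MxD* male numbered 1 it differed by -0.26, and without the *DxM* male numbered 2 by -0.25. Both values lay below the postmeiotic median, which was -0.23 at its lowest over the alternatives. This is a description of where 4 genes lie among others, with no test.

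The placing was similar against the other fertile genotypes for *Pgk2*, *Ldhc* and *Gapdhs*. Between *MxD* and *DxD* the differences of *Pgk2*, *Ldhc*, *Gapdhs* and *Pdha2* were above those of 84.8%, 78.8%, 52.4% and 93.3% of the postmeiotic genes, whose median was -0.22. Between *MxD* and *MxM* they were above 88.8%, 86.6%, 61.7% and 81.8%, with a median of -0.22. The classes mix genes of many functions from chromosomes 1 to 4 and part of chromosome 5. The study assigned them from published arrays of enriched testis cell populations, with Sertoli cells as the somatic class.

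**Figure D4:**
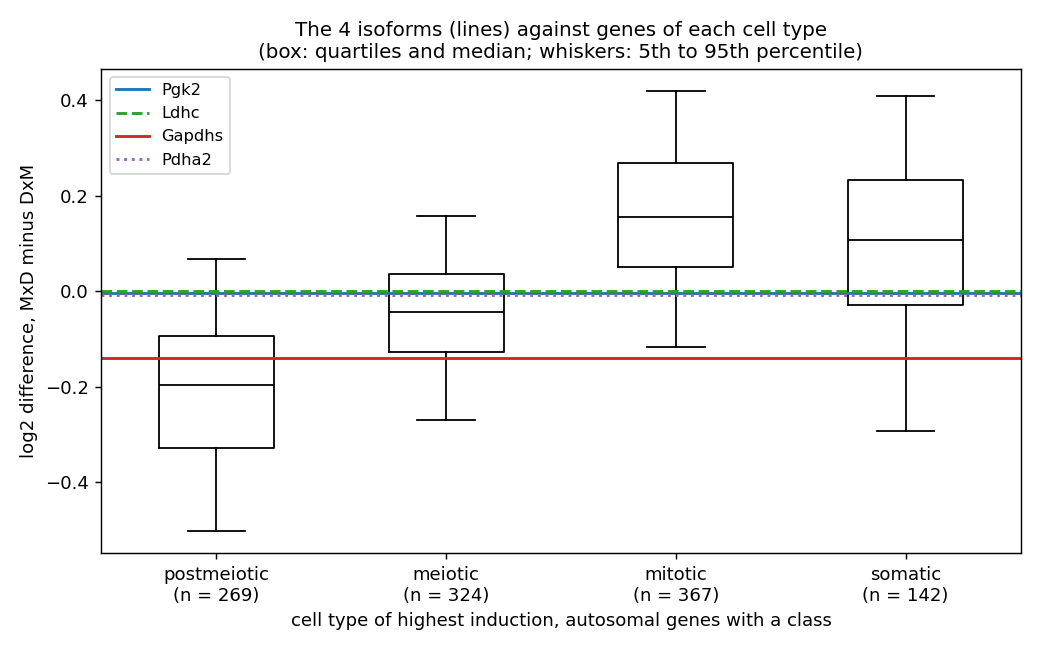
Log2 difference between *MxD* and *DxM* (vertical axis) of genes by the cell type in which they are most induced (horizontal axis; box, quartiles and median; whiskers, 5th to 95th percentile), with the 4 isoforms drawn as horizontal lines. *Pgk2*, *Ldhc* and *Pdha2* lie at 0 to within 0.01, above the upper quartile of the postmeiotic genes, and *Gapdhs* at -0.14 lies inside that box.

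The males numbered 1 stood apart from the others of their genotype in 3 of the 4 isoforms. In all 4 genotypes *Pgk2* was lower in the male numbered 1 than in both other males, by 0.16 to 0.24 below their mean. *Pdha2* was also lowest in the male numbered 1 of every genotype. *Gapdhs* moved the other way and was highest in the male numbered 1 of each genotype, in *DxM* together with the male numbered 3. For *Ldhc* the difference had both signs and stayed within 0.078. The mean difference of 0.25 for *Gapdhs* exceeded the span of its genotype means (0.21), as did that for *Pgk2*, while that for *Pdha2* did not.

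This contrast was chosen after its values were seen. In limma's fit with the number as a block, the males numbered 1 differed from the others by -0.20 ± 0.037 for *Pgk2* (SE; adjusted p = 0.00518), by 0.25 ± 0.057 for *Gapdhs* (SE; adjusted p = 0.0101) and by -0.15 ± 0.041 for *Pdha2* (SE; adjusted p = 0.0228). *Ldhc* differed by -0.027 ± 0.035 (SE; adjusted p = 0.576). Thus 3 of the 4 isoforms were called, where 33.3% of all genes were, 13.4% as higher and 19.9% as lower. The class medians of this contrast were -0.018 for postmeiotic, -0.025 for meiotic, -0.064 for mitotic and -0.067 for somatic genes. The labels do not say what the number marks. With the 4 males numbered 1 left out, 0 of the 4 isoforms were called in any contrast of genotypes, in fits that called from 2.14% of all genes (*DxM* against the within-species mean) to 29.6% (*MxM* against *DxD*). *Gapdhs* then differed between *MxD* and *DxM* by -0.20 (limma adjusted p = 0.474), in a contrast where 3.89% of all genes were called.

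**Figure D5:**
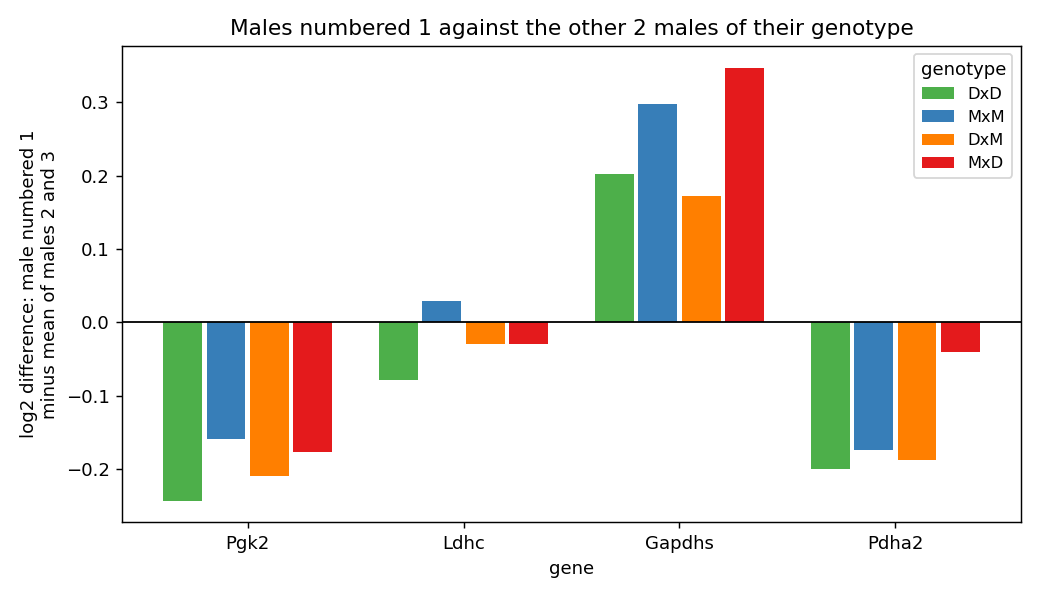
Log2 difference between the male numbered 1 and the mean of the other 2 males (vertical axis) for each gene (horizontal axis) and genotype (colour); each bar is 1 difference, with no error of its own. Bars of *Pgk2* and *Pdha2* lie below 0 and bars of *Gapdhs* above 0 in all 4 genotypes, while *Ldhc* is negative in 3 genotypes and 0.030 in *MxM*.

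The genes whose pattern over the 12 males was most like that of each isoform were found by Pearson's correlation, given without a test because neighbours were picked from 6999 genes and share arrays and normalization. The files do not pair these identifiers with names. For *Pgk2* the closest was ENSMUSG00000044221 (r = 0.975, n = 12 males), for *Gapdhs* ENSMUSG00000018678 (r = 0.973), for *Pdha2* ENSMUSG00000025903 (r = 0.951) and for *Ldhc* ENSMUSG00000046934 (r = 0.897). On deviations from the genotype means the values were 0.984, 0.973, 0.935 and 0.836. Genes with r over 0.8 numbered 147 for *Pgk2*, 142 for *Gapdhs*, 131 for *Pdha2* and 33 for *Ldhc*. Median correlations with whole classes were weak, the furthest from 0 being 0.346 between *Pdha2* and mitotic genes and -0.314 between *Gapdhs* and mitotic genes.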

How the data were processed

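Expression in whole testis was measured on 12 Affymetrix Mouse Genome 430 2.0 arrays, 1 per male, with genotype and male number from the labels. Per the methods, the authors grouped probes by Ensembl gene with BRAINARRAY chip description files (version 11), summarised them with PLIER, retained only genes detected in all males, applied quantile normalization and deposited log2 values. The deposited log2 values were used unchanged. Chromosomes (NCBI build 37, Ensembl version 52) and cell type classes came from the 1997 entries of the study's list of expressed genes used here. Its columns of the authors' own test results were not used. The array was designed on the laboratory mouse genome, and the effect of probe mismatches on the 4 isoforms was not tested. The number of arrays limits the precision.

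All 7000 genes were fitted in R 4.3.3 by limma (3.58.1) with a coefficient for every genotype, two-sided tests and adjusted p values over all genes within each contrast. The replicates are 3 separate males per genotype. Intervals are limma's 95% intervals from the shared spread. Named genes were the members, list genes called between *MxD* and *DxM* or paralogous to a member, and the 3 genes most like each member, of which the first is printed. *Cyp17a1* falls outside this rule and was chosen after its values were seen. Members and lists were chosen with earlier results of these data known. The 15 lists of pathway and cell type genes (148 symbols) could not be counted, because identifiers were not paired with names except for 1 symbol, *Cyp17a1*.

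Pairing was checked over all genes. Each male's values minus the mean of its genotype were correlated between males with the same number. Pearson's r was 0.411 to 0.756 between *MxD* and *DxM*, 0.189 to 0.694 between *MxD* and *DxD*, 0.151 to 0.638 between *MxD* and *MxM* and 0.162 to 0.754 between *DxM* and *DxD*, all over 0.1, so the number counts as a pairing there. This pairing is an assumption that comes from these values alone, not from the labels. Males with different numbers were not correlated for comparison.

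Alternatives were the t-test of the methods (variances equal or unequal), fits restricted to both genotypes of a contrast, the replicate block, a trend with a robust prior, array quality weights, removal of the dimmest 25% of genes, cyclic loess, each male left out in turn, the males numbered 1 left out, and unadjusted p values. The contrast of the males numbered 1, the cell type classes and the 700 brightest genes were added after seeing the data. The fit without a block was run on simulated data with independent noise, the same spread in every genotype and no shift of males numbered 1. That run does not cover the shift and the unequal spread of the real arrays. Python 3.11.15 and matplotlib 3.10.9 drew the figures.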

Additional observations from a re-analysis of the deposited data

How the results depend on the processing

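For 30 values there were 612 pairs of a value and an alternative setting, of which 565 kept their direction and side of the threshold. The difference of *Ldhc* between the hybrids was 0 and has no direction. It was counted as kept, while its alternatives ran from -0.0099 to 0.014. Counts of isoforms called, 0 as reported, changed as follows. With the replicate block they were 2 between *MxD* and *DxD* and 1 each between *DxM* and *DxD*, between *MxM* and *DxD* (*Pdha2*, limma adjusted p = 0.0171, with 44.4% of all genes called) and between *MxD* and the mean of the within-species genotypes. Same-numbered males correlated at 0.0744 to 0.568 between *MxM* and *DxD*, and at -0.0511 to 0.597 between *MxM* and *DxM*. The lowest values were not over 0.1, so the block there is a setting only. The same limit holds for the within-species mean, which includes *MxM* and *DxD*. The block changed no other call of an isoform between genotypes. At an unadjusted p under 0.05 the count was 1 in each contrast with *DxD*. Between *MxM* and *DxD* it was 1 with array quality weights (3498 of 7000 genes called) and 0 to 1 with 1 male left out (23.8% to 36.5% called), the call of *Pdha2* (0.26) arising without the *MxM* male numbered 1 (36.5%). The methods' t-test called 0 isoforms in the 6 pairwise contrasts, adjusted or at an unadjusted p under 0.05, so the unadjusted differences of *Pdha2* from *DxD* were not past the threshold there. Over all genes it called, after adjustment, 0 with unequal and 9 with equal variances between *MxD* and *DxM* (1050 and 1295 unadjusted; limma 455 adjusted), 654 and 1586 for *MxD* against *DxD*, 3 and 420 for *MxD* against *MxM*, 170 and 777 between *DxM* and *DxD*, 4 and 179 between *DxM* and *MxM*, and 468 and 1377 between *MxM* and *DxD*.

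Signs turned only in differences that were not called. *Pgk2* between *MxD* and *DxM* gave 0.0033 with array weights and 0.010 with loess, and -0.073 to 0.055 with 1 male left out. *Pgk2* between *MxD* and *DxD* gave 0.0062 with loess and -0.083 to 0.056 with 1 male left out. *Pgk2* between *DxM* and *DxD* gave -0.049 with weights, -0.0039 with loess, -0.010 without the males numbered 1 and -0.080 to 0.071 with 1 male left out. *Pdha2* gave 0.0058 with loess (-0.069 to 0.026 with 1 male left out) between *MxD* and *DxM*, 0.0063 with loess (-0.062 to 0.044) between *MxD* and *MxM*, and -0.052 with weights (-0.055 to 0.065) between *DxM* and *MxM*. *Gapdhs* gave 0.011 with weights (-0.13 to 0.046) between *DxM* and *DxD*, 0.16 with weights and 0.022 without the males numbered 1 (-0.13 to 0.095) between *DxM* and *MxM*, -0.15 to 0.063 with 1 male left out between *MxM* and *DxD*, and 0.087 with weights (-0.10 to 0.070) between *DxM* and the within-species mean. The cause was not tested.

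*Gapdhs* stayed negative between *MxD* and *DxM* in all 21 alternatives (-0.26 to -0.025; limma adjusted p 0.237 to 0.954). The contrast of the males numbered 1 was called in 16 of 16 alternatives for *Pgk2*, 15 of 16 for *Gapdhs* (0.22, adjusted p = 0.0504, without the *MxD* male numbered 1) and 12 of 16 for *Pdha2*, which lost it without the *DxD*, *MxM* or *DxM* male numbered 1 or the *DxM* male numbered 2 (adjusted p 0.0526 to 0.089). The planned comparison of isoforms with *Ldha* and the counts over gene lists were not run.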

Other observations

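*Cyp17a1*, a steroid-synthesis enzyme that marks Leydig cells, was the 1 gene of the marker lists that could be named. It was chosen after its values were seen. Its name came from a listed subset of the study's sterility-correlated genes, which were selected on these arrays for a difference between *MxD* and fertile males. Being named thus required such a difference, so the values below are not separate evidence of it. That subset holds only postmeiotic genes higher and mitotic genes lower in sterile males, directions that the study held cell composition could not explain. Among all its autosomal sterility-correlated genes, most postmeiotic genes were lower and most mitotic genes higher in sterile males. Being higher in *MxD*, *Cyp17a1* falls under the study's postmeiotic class. It read 11.23, 11.17 and 11.29 in the *MxD* males, above all 9 fertile males, which lay between 9.54 and 10.69. The difference was 1.09 ± 0.27 from *DxD* (SE; limma adjusted p = 0.0103), 1.26 ± 0.27 from *MxM* (adjusted p = 0.00526) and 0.67 ± 0.27 from *DxM* (adjusted p = 0.175). Over the same contrasts *Gapdhs* differed by -0.21, -0.16 and -0.14, none of them called. Whether the makeup of the testis had a part in either was not tested.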
